A study of Heterocephalus glaber and Mus musculus with 6 samples.

Results

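Atm, Atr, Chek1 and Chek2 encode the kinases at the head of the DNA damage checkpoint, and all 4 were found among the mouse entries that carry an Ensembl identifier and a GENCODE M21 symbol of their own, of which there were 42321. They were chosen by symbol and not by their values, though with earlier results of these data known. RNA was measured in keratinocytes from the dorsal skin of FVB mice aged 7 to 8 weeks, in 3 libraries, and no transgene, deletion or treatment is named for them. Epidermal cells had been freed with dispase and a trypsin-like enzyme and sorted on CD49f (integrin alpha-6), which basal keratinocytes carry. The naked mole-rat libraries of the same study were not used here, because the genes are defined by mouse identifiers.

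ATM and ATR are large kinases of the phosphatidylinositol 3-kinase-related (PIKK) family. ATM answers to double-strand breaks and ATR to single-stranded DNA, such as that at stalled replication forks. Each signals through a smaller kinase, ATM mainly through CHK2 (the product of Chek2) and ATR mainly through CHK1 (the product of Chek1), and these slow the cell cycle while DNA is repaired. In the epidermis, which meets sunlight, the ATR and CHK1 branch is known for its response to ultraviolet lesions.

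ATM and ATR phosphorylate serine or threonine followed by glutamine, so the coding sequences of the 4 genes were searched for such codon pairs. The search read the longest coding sequence of each gene in the GENCODE M21 transcripts (GRCm38, the mm10 assembly, of a mouse strain other than FVB), in frame on the coding strand. Any serine or threonine codon followed at once by a glutamine codon was counted. For each gene the window of 60 codons with the most pairs is printed as coding DNA, 5′ to 3′, with the codon pairs in capitals. The windows are shown because such pairs are where the large kinases can act on the small ones.
Chek2, codons 19 to 78: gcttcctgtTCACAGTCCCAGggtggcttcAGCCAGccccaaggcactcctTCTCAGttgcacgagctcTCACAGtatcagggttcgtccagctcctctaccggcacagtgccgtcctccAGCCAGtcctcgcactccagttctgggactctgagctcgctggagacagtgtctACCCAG
Chek1, codons 308 to 367: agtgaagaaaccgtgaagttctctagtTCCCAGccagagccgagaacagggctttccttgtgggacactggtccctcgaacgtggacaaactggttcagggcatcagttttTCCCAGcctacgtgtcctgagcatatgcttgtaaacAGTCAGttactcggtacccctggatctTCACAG
Atm, codons 142 to 201: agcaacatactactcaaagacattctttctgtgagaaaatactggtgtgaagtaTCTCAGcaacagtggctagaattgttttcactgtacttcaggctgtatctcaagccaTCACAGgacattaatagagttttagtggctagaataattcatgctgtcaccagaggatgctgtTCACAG
Atr, codons 1318 to 1377: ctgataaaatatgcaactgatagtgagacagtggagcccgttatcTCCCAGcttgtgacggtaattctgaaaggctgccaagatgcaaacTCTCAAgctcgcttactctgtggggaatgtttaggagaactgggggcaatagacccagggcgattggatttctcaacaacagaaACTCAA

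Chek2 held 10 such pairs in 546 codons, 7 of them in the printed window near its start. A window with at least 7 pairs was present in 0.0768% of the 14314 coding sequences long enough to hold one. Chek1 held 5 pairs in 476 codons, of which the window holds 4, and 2.96% of coding sequences have a window with at least that many. The pairs at codons 317 and 345 of Chek1 are the positions known in human CHK1 as targets of ATR. Atm held 28 pairs in 3066 codons and Atr 17 in 2641, with at most 3 in a window, as many as in 13.3% of coding sequences. Per 100 codons there were 1.83 pairs in Chek2, 1.05 in Chek1, 0.913 in Atm and 0.644 in Atr, against a median of 0.539 over 14364 coding sequences. A codon pair is a description of the sequence and does not show that the protein is phosphorylated there.

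The 3 libraries held 52499080, 53465434 and 52970733 counts, of which 10.6% to 11.5% lay in entries with an Ensembl identifier and the rest in 11689 assembled loci without a gene name. Reads of a gene that were assigned to an assembled locus are not in its value, so each level below is that of the gene's own entry. Library 1 had 3483 counts of the Y-linked gene Ddx3y and libraries 2 and 3 had 0, so the libraries did not all come from the same animals, and nothing in the labels says whether each was a separate animal. Of the markers, 2 of 8 basal and 3 of 7 suprabasal keratinocyte genes had an entry. The basal ones were the integrin gene Itga2 at 48.3 ± 5.58 CPM and Ass1 at 8.57 ± 2.78 CPM (SD, n = 3 each). The suprabasal ones were Tgm3 at 14.3 ± 3.97, Dsc2 at 7.61 ± 0.993 and Krt2 at 2.60 ± 0.578 CPM. Krt5, Krt14 and Itga6 were not analysed here, so the label of the cells rests on few genes. The endothelial genes Kdr, Cdh5 and Emcn were at 0 in each library and Pecam1 had 10 to 14 counts. Leukocyte markers summed to 0.571, 1.31 and 2.72 CPM in libraries 1, 2 and 3.

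Atm was the most abundant of the 4 in counts. It had 4052, 4359 and 3400 counts in libraries 1, 2 and 3, which are 77.2, 81.5 and 64.2 CPM (counts per 1000000 counts of the library). Libraries 1 and 2 lay close together and library 3 lower, at 0.832 times library 1 and 0.787 times library 2. Atm (ENSMUSG00000034218) lies on chromosome 9 from 53439149 to 53536740 on the minus strand (GRCm38), and its longest transcript has 62 exons. The exact 95% Poisson interval of its count in library 3 ran from 3287 to 3516 and did not meet those of libraries 1 and 2, whose lowest bound was 3928. Such intervals cover counting error only.

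Atr, the kinase of stalled forks, had 2276, 2198 and 1798 counts in libraries 1, 2 and 3, or 43.4, 41.1 and 33.9 CPM. Library 3 was again the lowest, at 0.804 times the mean of the other libraries, close to the 0.809 times of Atm. Atr (ENSMUSG00000032409) lies on chromosome 9 from 95857597 to 95951781 on the plus strand. The ratio of Atm to Atr in CPM, which also depends on their lengths, was 1.78, 1.98 and 1.89 in the 3 libraries. In bulk samples, fewer cells that express a gene and less of its RNA per cell cannot be told apart.

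Chek1, the kinase that ATR activates, varied least of the 4 by the coefficient of variation of CPM. It had 569, 613 and 534 counts in libraries 1, 2 and 3, or 10.8, 11.5 and 10.1 CPM, and the counting intervals of the 3 libraries overlapped. The mean was 10.8 ± 0.693 CPM (SD, n = 3), a coefficient of variation of 6.42%. Chek1 (ENSMUSG00000032113) is a gene of chromosome 9 too, from 36708482 to 36727065 on the minus strand.

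Chek2, the kinase that ATM activates, was the lowest of the 4 in counts and varied most. It had 298, 452 and 256 counts in libraries 1, 2 and 3, or 5.68, 8.45 and 4.83 CPM. Library 2 stood above the others, with a counting interval of 411 to 496 counts against 265 to 334 in library 1 and 226 to 289 in library 3, whose totals differ from it by little. The mean was 6.32 ± 1.89 CPM (SD, n = 3), a coefficient of variation of 30.0%. Chek2 (ENSMUSG00000029521) is the member on another chromosome, 5, from 110839979 to 110874145 on the plus strand.

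**Figure D1:**
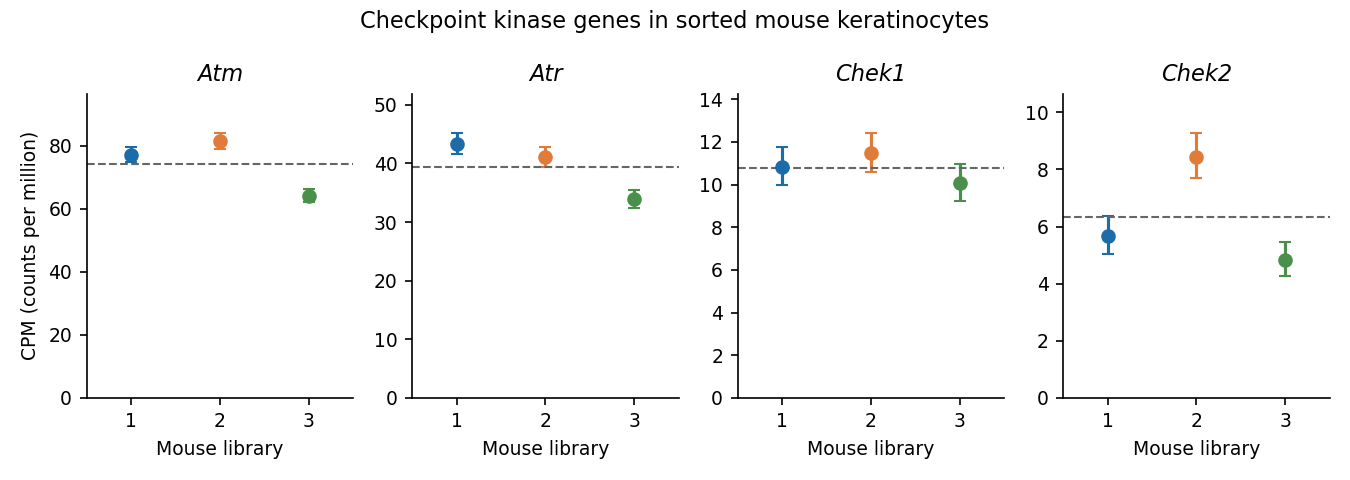
CPM (vertical axis, from 0, own scale in each panel) of Atm, Atr, Chek1 and Chek2 in mouse libraries 1, 2 and 3; points are single libraries, bars exact 95% Poisson intervals (counting error only) and the dashed line the mean of the 3. Library 3 is the lowest in every panel (with CPM over Ensembl entries alone, not for Chek1), and Chek2 in library 2, at 8.45 CPM, stands above 5.68 and 4.83 CPM.

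By the coefficient of variation of CPM, Chek1 varied less between the libraries than most genes of like abundance and the other members more. Among the 2407 measured genes whose mean count lay within 2-fold of that of Chek1 the median coefficient of variation was 9.91%, and 25.5% of them varied less than Chek1. Measured genes are the 9965 named ones that averaged 10 counts or more. For Chek2 the median of 2148 such genes was 12.7%, and 90.0% varied less. Atm had a coefficient of 12.1% against a median of 7.26% in 819 genes, and Atr 12.5% against 7.65% in 1770 genes, with 82.4% and 80.4% varying less. Each coefficient comes from 3 libraries and is imprecise. The biological coefficient of variation from edgeR, the spread beyond counting error after it is drawn towards the trend over 18007 entries, was 0.0988 for Atm, 0.107 for Atr, 0.130 for Chek1 and 0.216 for Chek2, where the trend at their abundance was 0.0997, 0.110, 0.155 and 0.191. By this measure Atm, and not Chek1, varied least. Chek2 alone lay above the trend with all 3 libraries, though without library 2 it lay below it, at 0.225 against 0.239. Atm lay above the trend without library 1, at 0.102 against 0.0978, and Atr without library 2, at 0.133 against 0.132.

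The deviation of a library is the difference between its log2 CPM and the average of the other libraries, with 0.5 added to each count. It passed 1.5-fold in some library for 1 of the 4 genes and for 35.4% of all measured genes. Chek2 deviated by 0.69 in library 2, or 1.61-fold. Library 2 was at least 1.5-fold higher for 11.8% of the 9965 measured genes. Among the genes within 2-fold of the mean count of Chek2, 4.80% were at least 1.5-fold away in library 2 in either direction, and 2.51% were at least as far away as Chek2. Over the 4 genes and 3 libraries that last share ran from 2.51% to 95.4%, the highest for Chek1 in library 1. The call rested on library 3 as well, since without it Chek2 in library 2 deviated by 0.57 (1.49-fold), and at a limit of 2-fold 0 of the 4 genes were called in any library, where 16.6% of all measured genes were. Chek2 in library 3 deviated by −0.52, and by −0.81 without library 1. With 1 library against the others there is no replicate, so no p-value is given.

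Each of the 4 genes was lowest in library 3, except Chek1 when CPM was taken over Ensembl entries alone, as were 47.6% of all measured genes. The deviations there were −0.31 for Atm, −0.31 for Atr, −0.14 for Chek1 and −0.52 for Chek2, with a median of −0.31, and the median of all measured genes in that library was −0.10. With CPM over Ensembl entries alone, the median of all genes in library 3 moved to 0.012. On that scale the deviations in library 3 were −0.20 for Atm, −0.20 for Atr and −0.41 for Chek2. Chek1 was then lowest in library 1, at 94.8 CPM of those entries against 99.7 in library 2 and 94.9 in library 3, and its deviation in library 3 was −0.035. In libraries 1 and 2 the deviations of Atm, Atr and Chek1 lay between 0.012 and 0.21, though that of Chek1 in library 1 was −0.038 with CPM over Ensembl entries alone.

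**Figure D2:**
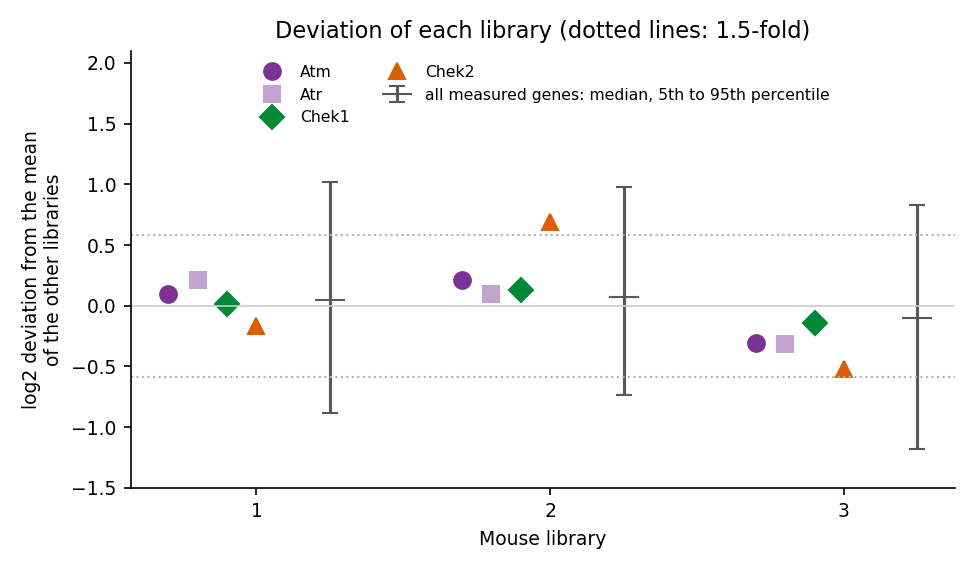
Log2 deviation of each mouse library from the mean of the other libraries (vertical axis) for Atm, Atr, Chek1 and Chek2 (symbols), beside the median and the 5th to 95th percentile of the 9965 measured genes (grey); dotted lines mark 1.5-fold. Chek2 in library 2, at 0.69, is past 1.5-fold, and every symbol lies inside the grey range of its library.

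Genes of mitosis, a cell-cycle phase that the checkpoint kinases hold back, were lower in library 3 by more than the kinases were. Their 27 measured members summed to 397, 368 and 190 CPM in libraries 1, 2 and 3, and the 13 measured genes of S phase and replication to 275, 292 and 224 CPM. These are 27 of 37 listed mitosis genes and 13 of 33 listed replication genes. The rest of each list were not analysed here, so the sums do not stand for the whole of either process. The 4 kinases summed to 137, 143 and 113 CPM. Their median deviation in library 3, −0.31, lay near the −0.32 of the replication genes and away from the −1.09 of the mitosis genes. Of the mitosis genes 24 of 27 were at least 1.5-fold lower in library 3, against 0 of the 4 kinases and 15.4% of all measured genes. The lists were fixed by function, but with earlier results of these data known, so the contrast is a description only. The part of dividing cells, of leukocyte RNA or of the sex of the animals in these differences was not tested.

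Compared per length, Atm was the highest of the 4, but the order below it changed with the length used. Per kilobase of all annotated exons Atm had 7.19 ± 0.873 CPM, Chek1 2.33 ± 0.150, Chek2 2.11 ± 0.631 and Atr 1.67 ± 0.208 (SD, n = 3 each). By that measure Chek1, Chek2 and Atr lay near the median of measured protein-coding genes, 2.11 CPM per kilobase, while 91.5% of those genes were below Atm. These are the 6595 measured protein-coding genes with an Ensembl entry. Assembled loci, which held most of the counts, are not among them, so the ranks do not place the kinases among all expressed genes. Chek1 and Chek2 did not differ beyond their spread, as library 2 reversed their order. The annotation of Atr holds 13 transcripts, of which 11 are retained introns, so all its exons together cover 23629 bases where the coding part covers 7923.

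Per kilobase of coding exons Atr had 4.98 ± 0.620 CPM, and it was no longer the lowest. Here the counts of the whole entry, reads outside the coding part included, were divided by the coding length alone. That length is 1428 of 4635 exon bases in Chek1 and 9216 of 10338 in Atm, so this scale raises Chek1 more than Atm by construction. On that scale 56.2% of measured protein-coding genes were below Atm, and 83.5% with the longest transcript as length. Atm then had 8.06 ± 0.979, Chek1 7.56 ± 0.485 and Chek2 3.86 ± 1.16 CPM per kilobase (SD, n = 3 each). Atm and Chek1 did not differ beyond their spread on this scale, where Chek1 was above Atm in library 3, at 7.06 against 6.96 CPM per kilobase. With the longest transcript as length the values were 7.57 ± 0.919 for Atm, 4.87 ± 0.607 for Atr, 2.84 ± 0.183 for Chek1 and 2.78 ± 0.832 for Chek2. Atm was above Atr in each library under the 3 lengths, by 1.47-fold to 1.64-fold on the longest transcript, 1.53-fold to 1.70-fold on coding exons and 4.07-fold to 4.53-fold on all exons.

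**Figure D3:**
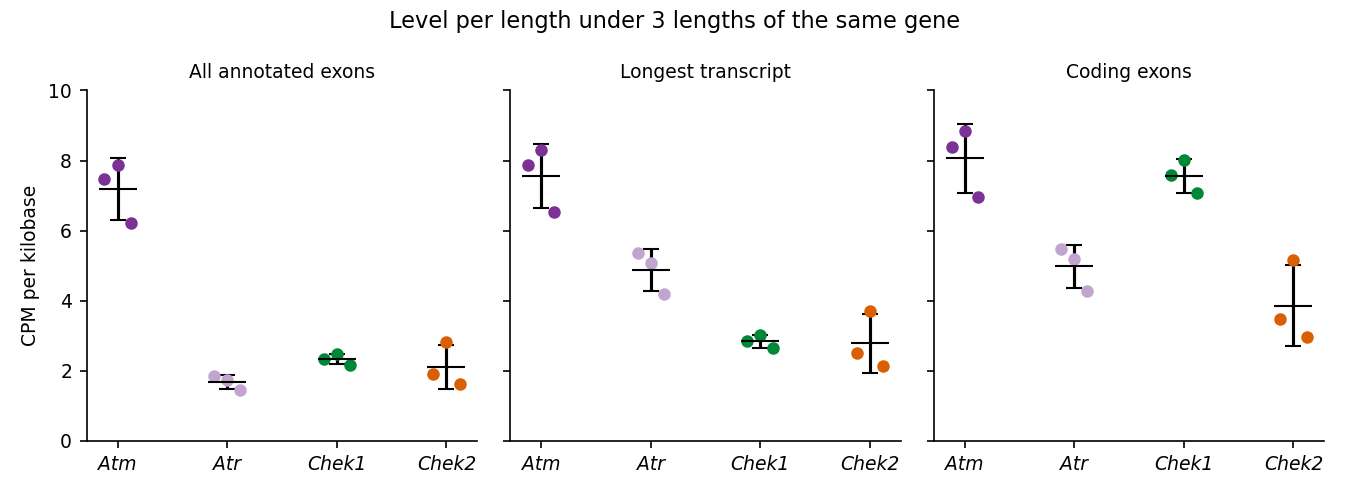
CPM per kilobase (vertical axis, from 0) of the 4 genes with all annotated exons, the longest transcript or the coding exons as length; points are the 3 mouse libraries, the wide line and bar the mean ± SD. Atr is lowest with all exons, at 1.67, and second with the longest transcript, at 4.87.

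Of 51 genes that work with these kinases, in 6 groups listed by function, 28 had an entry and all 28 were measured; the rest were not analysed here. Their median deviation was 0.053, 0.12 and −0.19 in libraries 1, 2 and 3, against 0.047, 0.073 and −0.10 for all measured genes. A deviation of 1.5-fold or more in any library was found for 4 of the 28 (1 gene that feeds ATR, 1 mediator and 2 targets) and for 35.4% of all measured genes. The share over all genes depends on their abundance. Among genes within 2-fold of the mean count of Atm, 0.244% to 1.59% were 1.5-fold away in a single library. For Chek2 that share was 4.80% to 12.1%. No share at like abundance was taken for the 28, so these values do not show that they are steadier than other genes. In library 1, 2 of the 28 were that much higher, against 13.2% of all measured genes, and in library 3, 3 of the 28 were that much lower, against 15.4%. Of the 28, 21 were lowest in library 3, or 17 with CPM over Ensembl entries alone, where 47.6% of all measured genes were lowest on the first scale.

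Among the relatives and partners of the large kinases, Prkdc, the PIKK kinase of DNA end joining, had 5.12 ± 0.483 CPM per kilobase of exon (SD, n = 3). Tti1 had 6.26 ± 0.501 and Telo2 2.94 ± 0.154, which together help newly made PIKK kinases to fold. Of the genes that feed ATM, Rad50, a subunit of the complex that binds broken ends, had 8.06 ± 1.18 CPM per kilobase, the ATM cofactor gene Atmin 8.04 ± 0.456 and the acetyltransferase gene Kat5 7.09 ± 0.506. None of these deviated by 1.5-fold in any library. Rad50 was highest in library 2, with 50.5 CPM against 41.0 and 38.5 in libraries 1 and 3. Atm, Chek1 and Chek2 were highest there too, as were 37.6% of all measured genes. Atmin was highest in library 3, with 41.1 CPM against 36.8 and 39.7 in libraries 1 and 2.

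The measured genes that feed ATR belong to the proteins that detect single-stranded DNA. Rpa3, the smallest subunit of the protein that coats single-stranded DNA, had 5.92 ± 0.553 CPM per kilobase of exon, the ATR activator gene Etaa1 4.19 ± 0.105 and Rhno1, whose protein binds the checkpoint clamp, 2.41 ± 0.0459 (SD, n = 3 each). Hus1, a subunit of that clamp, had 626, 604 and 491 counts in libraries 1, 2 and 3, and its deviations of 0.22, 0.10 and −0.32 were close to the 0.21, 0.10 and −0.31 of Atr. Its relative Hus1b was the called gene of the group, 0.93 lower on the log2 scale in library 3, on 30, 28 and 15 counts.

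Among mediators, which carry the signal from the large kinases to their targets, Rif1, a partner of 53BP1 at breaks, had 12.8 ± 1.27 CPM per kilobase of exon, the ubiquitin ligase gene Rnf168 8.76 ± 0.714 and the fork protection gene Tipin 8.04 ± 0.605 (SD, n = 3 each). Clspn, the adaptor through which ATR reaches CHK1, had 13.9, 16.3 and 9.65 CPM in libraries 1, 2 and 3 and deviated by −0.64 in library 3. That places it past 1.5-fold in library 3 where Chek1, at −0.14, was not; with TMM, DESeq2 or Ensembl-only scaling Clspn was not called. In library 2, 8 of 9 mediators were highest, and 37.6% of all measured genes were.

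Among targets and effectors, Cdc25c, a phosphatase that opens mitosis and that the checkpoint kinases restrain, differed most between libraries among the 5 measured targets. It had 195, 119 and 47 counts in libraries 1, 2 and 3, or 3.71, 2.23 and 0.887 CPM, with deviations of 1.40 in library 1 and −1.69 in library 3. Plk3, a stress-responsive kinase, had 9.26, 6.51 and 5.70 CPM, a deviation of 0.60 in library 1 that was not called with TMM, DESeq2 or Ensembl-only scaling. The transcription factor gene E2f1 had 6.68 ± 0.965 CPM per kilobase of exon, Pkmyt1, a kinase that holds CDK1 inactive, 5.44 ± 0.302 and Cdc25a, a phosphatase of the S phase checkpoint, 3.32 ± 0.573 (SD, n = 3 each). All 5 measured targets were lowest in library 3, or 4 of 5 with CPM over Ensembl entries alone.

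**Figure D4:**
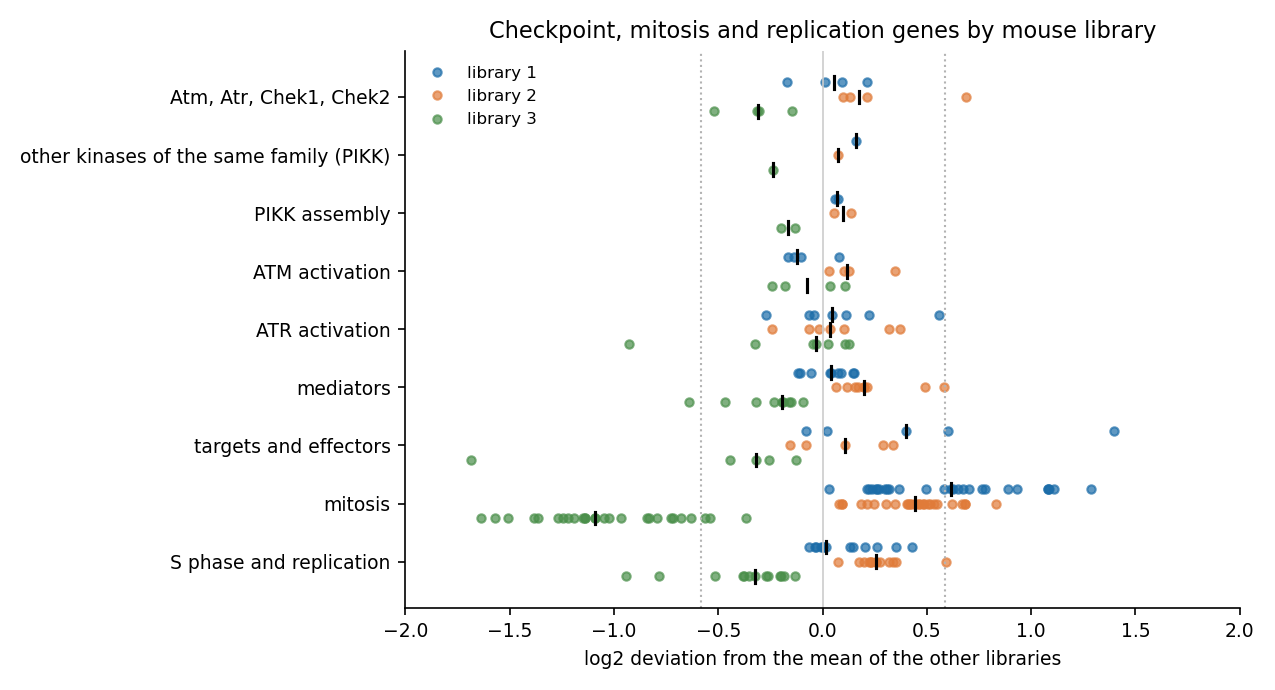
Log2 deviation of each mouse library from the mean of the other libraries (horizontal axis) for the 4 kinases and for the measured genes of the 6 checkpoint groups, mitosis and S phase; each point is a gene in 1 library, black bars are group medians and dotted lines mark 1.5-fold. In library 3 the median was −0.31 for the kinases, −1.09 for mitosis and −0.32 for S phase.

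Both Atm and Chek2 have a gene that starts close by and runs the other way. Npat, a coactivator of histone genes, starts 307 bases from Atm on the other strand, and its deviations of 0.019, 0.22 and −0.24 in libraries 1, 2 and 3 ran near the 0.093, 0.21 and −0.31 of Atm. Npat had 38.3, 42.1 and 34.0 CPM. Likeness to Atm was common: by the distance of pattern defined below, 440 of 4889 other protein-coding genes lay within 0.1 of it. Any part of the close starts in the likeness of Npat and Atm was not tested. Hscb, a cochaperone of iron-sulfur cluster assembly, starts 202 bases from Chek2 on the other strand and had 4.90, 6.13 and 5.70 CPM. Its deviation was 0.22 in library 2 and 0.057 in library 3, where Chek2 had 0.69 and −0.52.

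Atr overlaps a pair of antisense genes, Gm16794 over 9737 bases, with 91, 107 and 89 counts, and 1700065D16Rik over 726 bases, with 4, 0 and 5 counts. It also holds the small nuclear RNA gene Gm24004, with 0, 1 and 1 counts. The libraries were made with a kit that keeps strand, but the setting used in counting is not given in the sources used here, so reads of Atr and Gm16794 may not be separated. Against the 1798 to 2276 counts of Atr these entries are small.

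Likeness of pattern was measured as the Euclidean distance between centred log2 CPM over the 3 libraries, among 4889 other protein-coding genes with a mean of at least 100 counts. Nearest to Atm were Prkacb, a catalytic subunit of protein kinase A, at a distance of 0.0028, Tle2 at 0.0061 and Uprt at 0.0078. Nearest to Atr were Fbxo42 at 0.0026, the chromatin remodeller gene Chd6 at 0.0070 and Hus1 at 0.0078. Nearest to Chek1 were Ppp2r3d at 0.0016, Zfp592 at 0.0037 and Fam172a at 0.0046. Nearest to Chek2 were Echdc1 at 0.014, Lgals9, which encodes galectin-9, at 0.056 and Ptpru at 0.057.

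With 3 libraries many genes share a pattern: 440 genes lay within 0.1 of Atm, 442 of Atr and 870 of Chek1. Of the 4889, 9 lay that near to Chek2. Its deviations were larger, and a fixed distance holds fewer genes where deviations are large. These numbers therefore do not show that the pattern of Chek2 is unusual for a gene that deviates as much. Counting error was not taken into account in these distances, so the order of the nearest genes is not firm. Echdc1 had 22.4, 32.9 and 18.9 CPM in libraries 1, 2 and 3, a peak in library 2 like that of Chek2. Between the kinases the distance was 0.11 for Atm and Atr, 0.13 for Atm and Chek1, 0.18 for Atr and Chek1, and 0.39 to 0.49 between Chek2 and each of the others.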

How the data were processed

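Each mouse table holds whole-number counts, 1 per annotated gene or assembled locus, which the authors deposited as raw counts. Adapter trimming with cutadapt, quality control with FastQC and alignment tools Bowtie2 and TopHat2 are named in the submitters' processing notes, with mm10 as build; the counting program is not given in the sources used here. A count of 1 was rarer than a count of 3 (641 and 781 entries of mouse library 1), so an estimated coverage may lie behind the counts. Per the labels' protocols, ribosomal RNA was depleted and libraries kept strand.

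GENCODE M21 gave a symbol to 42457 of the 42675 mouse Ensembl identifiers, unique for 42321. CPM was taken over all entries of a library. Dispersion came from edgeR 4.0.16 (entries passing filterByExpr, TMM factors, intercept only) in R 4.3.3, with DESeq2 1.42.0 size factors as an alternative. The fit was also run on simulated data. Their spread did not change with abundance as it does here, so that run does not vouch for the values of the kinases. Other steps used Python 3.11.15. The mouse libraries form 1 group, so no test between groups was run. The genes and lists were chosen with earlier results of these data known. Beside the 4 kinases, the text names the 3 genes of each list highest per kilobase, those called at 1.5-fold, the 3 genes nearest in pattern, and genes that overlap a kinase gene or start within 5 kb of it.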

Additional observations from a re-analysis of the deposited data

How the results depend on the processing

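Of 203 alternative values for 25 results, 176 kept their call, stayed within 1.5 times a count or moved by no more than the spread between libraries. Of 96 values for single deviations of the kinases, 93 kept their call and 7 changed sign, 4 when a library was left out and 3, all for Chek1 in library 1, with another scaling; 0 of the 7 belonged to a called deviation. All main deviations but that of Chek2 in library 2 were below 1.5-fold. Keeping the call therefore mostly means that a small value stayed small, and the 2-fold limit reuses the main values. The 93 and the 176 are thus no measure of how firm the called deviation is. Taken over Ensembl entries alone, levels per kilobase of exon rose by construction to 64.1 for Atm, 14.9 for Atr, 20.8 for Chek1 and 18.7 for Chek2, and without the highest locus that of Chek1 was 2.59. With the longest transcript Atr had 4.87, Chek1 2.84 and Chek2 2.78 CPM per kilobase, and with coding exons, a length chosen after seeing the data, Atm had 8.06, Atr 4.98, Chek1 7.56 and Chek2 3.86. The number of kinases called was 0 at 2-fold and 0 to 1 when a library was left out, against 1. The number of checkpoint genes called was 2 with Ensembl-only, TMM or DESeq2 scaling, 1 at 2-fold and 1 to 4 when a library was left out, against 4. Left-out libraries gave a biological coefficient of variation of 0.0739 to 0.120 for Atm, 0.0786 to 0.133 for Atr, 0.121 to 0.177 for Chek1 and 0.165 to 0.225 for Chek2. Of the 4 kinases Chek2 had the fewest counts, 256 to 452, and so the largest counting error relative to its level. No paired analysis was possible because the mouse libraries form 1 group.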
